A study of Solenopsis japonica with 2 samples.

Results

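Cytochrome P450 4g15 (CYP4G15) was represented by 3 of the 4487 contigs in the deposited comparison of Solenopsis japonica workers at 9 °C and 25 °C. Members were the contigs c39730_g1_i1 and c89628_g4_i1 and any other whose best match in the NR or NT database carries this name, which added c90445_g3_i1. The rule uses names and no counts, but it was written with earlier results of these data known, and each contig of the table had already passed the authors' limits on fold change and p-value. The S. japonica sequences themselves were not analysed here.

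Insect P450s of the CYP4G subfamily carry out the last step in the synthesis of cuticular hydrocarbons. Fatty acid synthases, elongases and desaturases build a very long acyl chain, fatty acyl-CoA reductases turn it into an alcohol or aldehyde, and the CYP4G enzyme removes the end carbon, with electrons from NADPH-cytochrome P450 reductase. The work takes place mainly in oenocytes, large cells that lie among the fat body or under the epidermis, and the product is carried in the blood by lipophorin to the body surface, where it limits water loss and serves as the colony odour of ants. In Drosophila melanogaster the oenocyte enzyme is Cyp4g1, whereas Cyp4g15 has been described in the nervous system, so that the name 4g15 states a sequence match and not a site of expression.

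The study compared wild type adult workers of a laboratory colony held for 24 h at 9 °C (T9) with workers held for 24 h at 25 °C (T25), the control and rearing temperature. RNA came from pooled whole bodies, and each temperature had 1 library, so no difference could be set against the spread between pools of ants and no p-value is given. Ratios are counts scaled by the normalised library sizes carried by the deposited log2 values (53237356 in T9 and 49264352 in T25), and the interval after each ratio is an exact Clopper-Pearson 95% interval, which covers counting error only. Over all contigs tabulated, 2455 were higher and 2032 lower in T9, the smallest fold was 2.35, and a single contig matched to the ant mitochondrial genome (c68678_g1_i1) took 26.2% of the tabulated counts in T9 and 78.0% in T25.

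The main CYP4G15 contig, c39730_g1_i1, had 79263 counts in T9 and 5932 counts in T25. It was 12.4-fold higher in T9 (12.0 to 12.7). Its FPKM, a level scaled by contig length and by read depth, was 637.4 in T9 and 47.1 in T25. The best nucleotide match is the fire ant S. invicta gene LOC105203423, named cytochrome P450 4g15.

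The other abundant contig, c89628_g4_i1, had 58448 counts in T9 and 7025 counts in T25, and was 7.70-fold higher in T9 (7.51 to 7.89). Its FPKM was 498.9 in T9 and 59.2 in T25. It matches a different S. invicta gene, LOC105193720, named cytochrome P450 4g15-like. Both contigs were thus among the most abundant of the table in the cold library, where c39730_g1_i1 ranked 32 and c89628_g4_i1 ranked 39 by FPKM, against ranks of 97 and 79 in T25.

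The minor contig, c90445_g3_i1, had 57 counts in T9 and 18 counts in T25 and was 2.93-fold higher in T9, with a wide counting interval (1.70 to 5.29). Its FPKM was 4.78 in T9 and 1.49 in T25. From the counts behind each unit of FPKM, its length as used by the authors was 0.0959 of that of c39730_g1_i1, whereas c89628_g4_i1 had 0.942 of that length. The protein match of this short contig is a partial cytochrome P450 4g15-like entry of S. invicta, and its nucleotide match is a noncoding RNA, LOC105203404, so its name is the least certain of the 3.

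At least 4-fold higher counts in T9 were found for 2 of the 3 CYP4G15 contigs, against 36.9% of all contigs of the table (30.8% were at least 4-fold lower). All 3 were higher in T9, against 54.7% of the table, and none was lower, against 45.3%. With 3 members these shares describe the contigs and test nothing. Among the 134 contigs with at least 10000 counts over both libraries, 113 were higher in T9, and 22 of the 134 had a larger ratio than c39730_g1_i1 and 30 a larger ratio than c89628_g4_i1. The large ratios of both CYP4G15 contigs thus stood in the upper part of the table's abundant contigs without leading it.

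**Figure D1:**
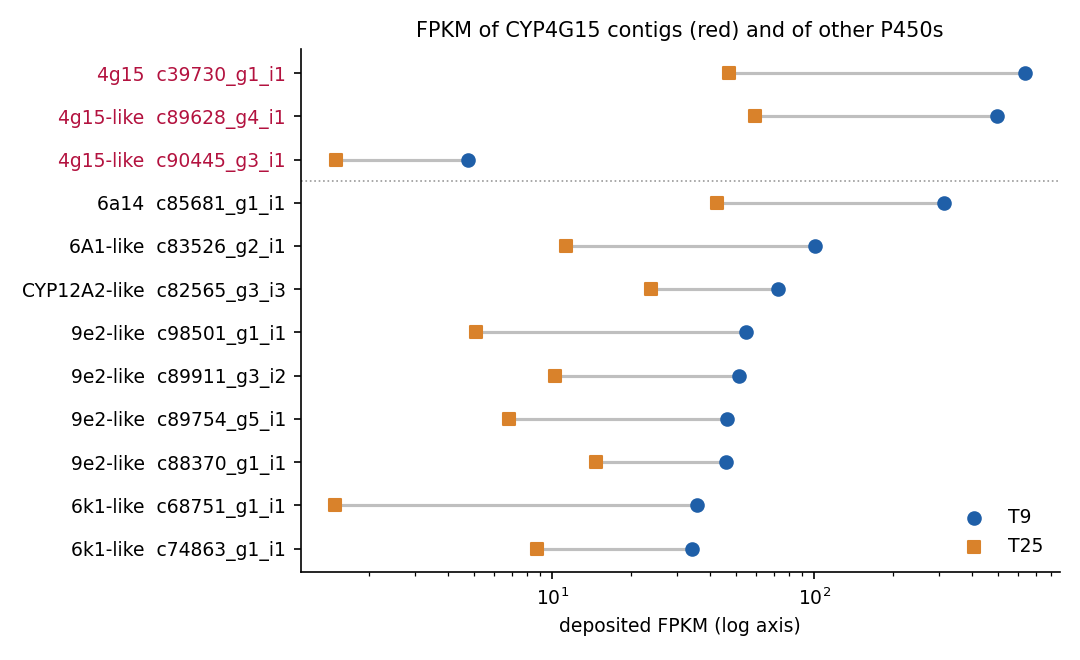
Deposited FPKM (log axis) in the T9 library (circles) and the T25 library (squares) for the 3 CYP4G15 contigs, in red above the dotted line, and for the 9 of the 36 other P450 contigs with the largest FPKM in T9. The 2 abundant CYP4G15 contigs lead the P450s in both libraries, with c39730_g1_i1 first in T9 and c89628_g4_i1 first in T25.

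The 2 abundant contigs exchanged their order between the temperatures. In T9 c39730_g1_i1 held 57.5% of the counts of the 3 contigs (exact binomial 95% interval 57.3% to 57.8%) and c89628_g4_i1 held 42.4%. In T25 c39730_g1_i1 held 45.7% (44.9% to 46.6%) and c89628_g4_i1 held 54.1%. Per length the same exchange was seen, with 55.9% of the summed FPKM in c39730_g1_i1 in T9 and 43.7% in T25.

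The ratio of c39730_g1_i1 was 1.61 times that of c89628_g4_i1 (1.55 to 1.67, a normal interval of the log ratio for counting error), and this quotient does not depend on how the libraries are scaled. The ratio of c39730_g1_i1 was 4.22 times that of c90445_g3_i1 (2.48 to 7.17), and that of c89628_g4_i1 was 2.63 times (1.55 to 4.47). These differences between contigs exceed counting error, but the spread between ant pools is unknown. Reads that fit more than 1 of these related genes were divided between contigs by the authors' counting program, which leaves the split between them uncertain to an unknown degree.

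**Figure D2:**
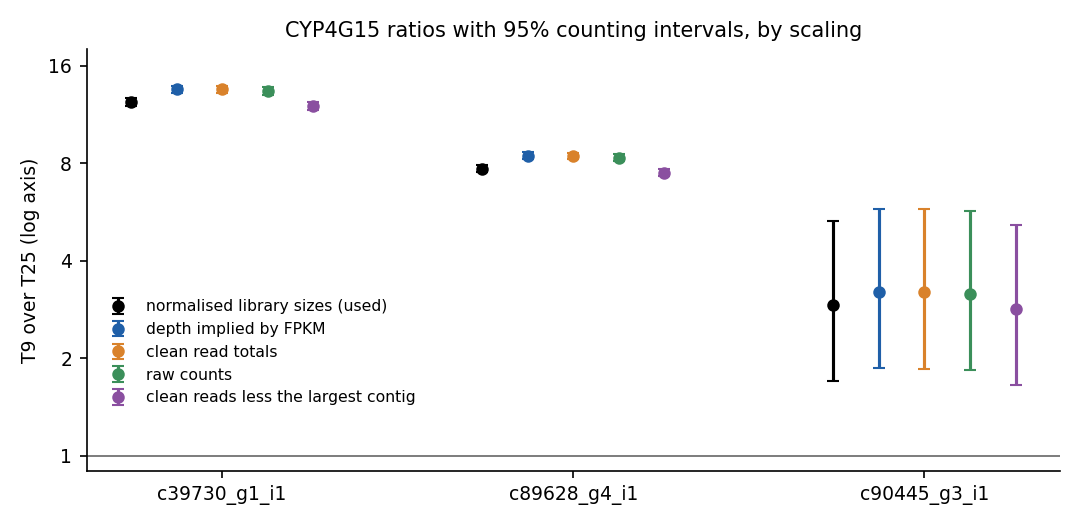
Ratio of T9 to T25 (log axis) of each CYP4G15 contig under 5 scalings of the libraries, with exact 95% counting intervals. The points of c39730_g1_i1 lie between 12.0 and 13.5, those of c89628_g4_i1 between 7.48 and 8.43 and those of c90445_g3_i1 between 2.85 and 3.21, all above the line at 1.

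Summed over the 3 contigs, CYP4G15 had 137768 counts in T9 and 12975 in T25, a ratio of 9.83 (9.65 to 10.0). The 36 other contigs with cytochrome P450 in their description, a family that otherwise acts mainly on hormones, toxins and plant compounds, had 61238 counts in T9 and 12301 in T25, a ratio of 4.61 (4.52 to 4.70). In T9 the sums stood at 2588 CPM (counts scaled by the normalised library size) for CYP4G15 and 1150 for the other P450s, and in T25 at 263.4 for CYP4G15 and 249.7 for the other P450s. CYP4G15 held 69.2% of these P450 counts in T9 (69.0% to 69.4%) and 51.3% in T25 (50.7% to 52.0%), or 53.0% of their FPKM in T9 and 34.4% in T25. These shares depend on which contigs count as P450s. With 2 more contigs that have a P450 domain but no such description (c83526_g1_i1, matched to CYP6A1, and c74715_g2_i1), the other P450s stood at 1664 CPM in T9 and 395.3 CPM in T25, and their summed ratio was 4.21 (4.15 to 4.28). CYP4G15 then held 60.9% of the P450 counts in T9 (60.7% to 61.1%) and 40.0% in T25 (39.5% to 40.5%), so that it was above the others in T9 and below them in T25.

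By contig, the other P450s were higher in T9 in 33 of 36 cases, against 54.7% of the table. A ratio of at least 4-fold was reached by 18 of the 36, against 36.9% of the table. The median log2 ratio of the 36 was 1.91, where 1 was added to each scaled count. Over all contigs of the table the median was 1.45. Larger ratios than that of c39730_g1_i1 were found in 2 of the 36, cytochrome P450 6k1-like (c68751_g1_i1, 3215 counts in T9 and 136 in T25, 21.9-fold) and cytochrome P450 4aa1 (c85026_g3_i2, 18 counts in T9 and 1 in T25, 16.7-fold with an interval of 2.63 to 694). Cytochrome P450 6a14 (c85681_g1_i1), the one of these 36 with the largest counts, had an FPKM of 313.2 in T9 and 42.6 in T25 and was 6.71-fold higher in T9 (6.47 to 6.96), below both abundant CYP4G15 contigs. The next of the 36 by counts were a CYP12A2-like contig (c82565_g3_i3, 11936 counts in T9 and 3954 in T25, 2.79-fold) and a 9e2-like contig (c89911_g3_i2, 5843 counts in T9 and 1177 in T25, 4.59-fold).

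Of 13 contigs named for other CYP4 enzymes, the closest relatives by name, 12 were higher in T9, against 54.7% of the table. At least 4-fold higher were 6 of the 13 (46.2%), a share near the 36.9% of the table. None of the 13 approached the level of the abundant CYP4G15 pair. The most abundant by counts, a 4C1-like contig (c89078_g11_i1), had an FPKM of 24.4 in T9 and 2.84 in T25 and was 7.86-fold higher (7.01 to 8.83), close to c89628_g4_i1, although its nucleotide match is a protein kinase-like gene. Next by counts came 4C1-like contigs c88461_g1_i6 (347 counts in T9 and 120 in T25), c89280_g2_i1 (311 in T9 and 104 in T25) and c89280_g1_i2 (255 in T9 and 90 in T25), with ratios of 2.68, 2.77 and 2.62 in that order. None of these 3 reached the 4-fold mark, and the other CYP4 contigs had at most 82 counts in T9. A 4c21-like contig (c89779_g3_i3) was the only one of the 13 lower in T9, with 47 counts in T9 and 164 in T25, 3.77-fold lower (2.71 to 5.33).

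A P450 domain of the Pfam collection was assigned to all 3 CYP4G15 contigs and to 32 contigs of the table in total. Drosophila Cyp4g15 was the UniProt match of 2 contigs in the table, c39730_g1_i1 and c89628_g4_i1, and these 2 also carry the terms heme binding and iron ion binding of the Gene Ontology, while c90445_g3_i1 carries none. Of the domain contigs outside the 36, c83526_g1_i1 had 25846 counts in T9 and 6583 in T25 (3.63-fold, 3.54 to 3.73), more than 6a14 but fewer than both abundant CYP4G15 contigs in T9, and c74715_g2_i1 had 1523 counts in T9 and 591 in T25. Of the 38 contigs with heme binding, 35 were higher in T9, against 54.7% of the table, and 17 at least 4-fold higher, a share of 44.7% beside 36.9%.

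**Figure D3:**
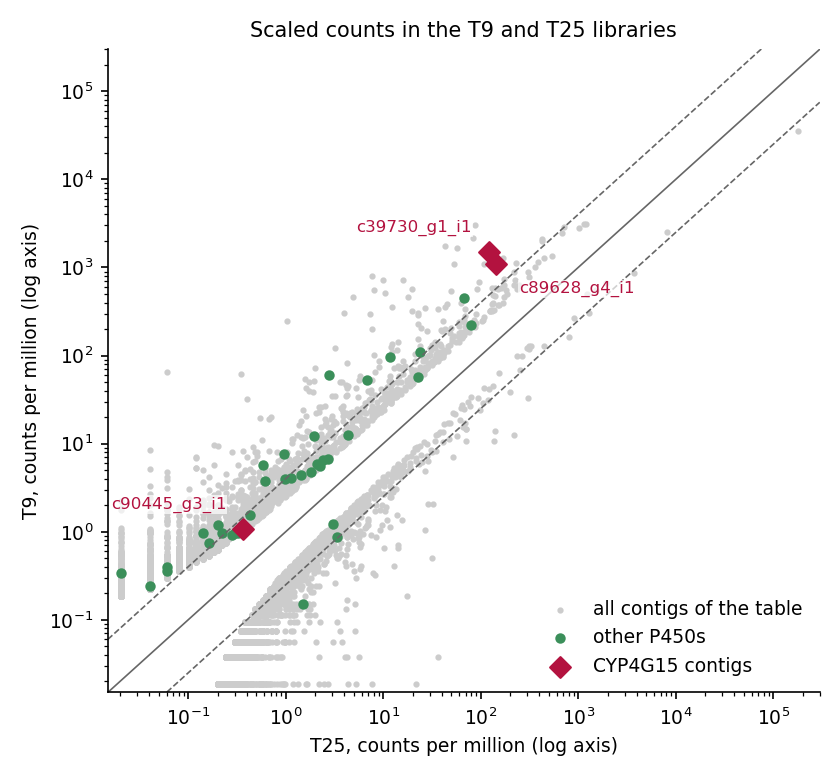
CPM in T9 (vertical, log axis) against T25 (horizontal, log axis) for all 4487 contigs (grey), the 36 other P450s (green) and the 3 CYP4G15 contigs (red diamonds), with a solid line where the libraries are equal and dashed lines at 4-fold. The empty band along the solid line holds the contigs that the authors' limits left out, and c90445_g3_i1 lies beside its edge.

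The contigs whose pair of values was most like that of each abundant member were sought by the distance between log2 scaled counts over the 2 libraries. For c39730_g1_i1 the nearest of the described contigs was a fatty acid synthase (c21111_g1_i1, 58760 counts in T9 and 5351 in T25, distance 0.46), followed by c89628_g4_i1 (distance 0.50). The third was an uncharacterized protein (c72971_g1_i1, 0.54), the fourth a family 31 glucosidase (c35068_g1_i1, 0.74) and the fifth a further fatty acid synthase-like contig (c90821_g8_i3, 1.02). For c89628_g4_i1 the same uncharacterized protein and the same fatty acid synthase came first (0.33 and 0.39), then c39730_g1_i1, a lipoyltransferase 1 contig (c80056_g1_i1, 0.62) and an omega-conotoxin-like protein 1 contig (c75565_g1_i2, 0.70). With 2 libraries this likeness is one of abundance and ratio only.

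Contigs named for enzymes upstream of CYP4G were listed by words in their descriptions, which do not assign a contig to hydrocarbon synthesis. Each of the 48 tabulated contigs of the synthase, elongation, desaturase and reductase lists was higher in T9, against 54.7% of the table. At least 4-fold higher were 37 of them (77.1%, against 36.9% of the table). Contigs of these enzymes that fell short of the authors' limits are absent from the table, so unchanged ones could not be seen. Of the 48, 6 had a larger ratio than c39730_g1_i1 and 19 a larger ratio than c89628_g4_i1. Several contigs match the same gene (the 46 with a numbered nucleotide match share 37 entries), so that they are not independent, and the lists were drawn up with results of these libraries known.

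Fatty acid synthases, which build the saturated chain, were higher in T9 in 23 of 23 contigs (median log2 ratio 2.16), against 54.7% of the table. Of these 23, 18 were at least 4-fold higher (78.3%, against 36.9% of the table). The nearest neighbour named above, c21111_g1_i1, was 10.2-fold higher (9.88 to 10.5), between the 2 abundant CYP4G15 contigs, while c90821_g8_i3 was 4.93-fold (4.83 to 5.03) and c90211_g3_i6 2.93-fold higher (2.88 to 2.99). In T9 the FPKM of these contigs was 156.8 for c21111_g1_i1, 116.8 for c90821_g8_i3 and 116.6 for c90211_g3_i6, well below the levels of both abundant CYP4G15 contigs. The largest FPKM of any synthase contig was 219 in T9, also below both. In T25 it was 47.15, beside 47.08 for c39730_g1_i1 and 59.18 for c89628_g4_i1.

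In the elongation cycle, which adds carbon units to the chain, 11 of 11 contigs were higher in T9 and 7 at least 4-fold (median log2 ratio 2.36). Elongase AAEL008004-like contig c89329_g1_i2 had 6845 counts in T9 and 1185 in T25 (5.35-fold, 5.02 to 5.69), and elongase 7-like contig c113360_g1_i1 had 2675 and 187 counts in T9 and T25 (13.2-fold, 11.4 to 15.4), whose interval overlaps that of c39730_g1_i1. The very-long-chain 3-hydroxyacyl-CoA dehydratase contig c71935_g1_i1 was 2.56-fold higher (2.42 to 2.71).

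Acyl-CoA desaturases, which set the double bond of alkenes, were higher in T9 in 5 of 5 contigs, against 54.7% of the table. Of these 5, 4 were at least 4-fold higher (80.0%, against 36.9% of the table). The Delta(11) desaturase c88751_g1_i2 had 29022 counts in T9 and 2453 in T25 (10.9-fold, 10.5 to 11.4), c90393_g1_i2 was 4.02-fold (3.80 to 4.26) and c86697_g1_i1, whose nucleotide match is a phosphate cotransporter, 2.76-fold higher (2.63 to 2.91). None of the 5 had a larger ratio than c39730_g1_i1.

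Fatty acyl-CoA reductases, which supply the direct substrate of CYP4G enzymes, were higher in T9 in 9 of 9 contigs, against 54.7% of the table. Of these 9, 8 were at least 4-fold higher (88.9%, against 36.9% of the table). Their median log2 ratio of 3.17 lay between those of the abundant CYP4G15 contigs (3.63 and 2.94). Larger ratios than that of c39730_g1_i1 were found in 4 of the 9, led by c89980_g2_i1 with 508 counts in T9 and 9 in T25 (52.2-fold, 27.3 to 115). The reductase contig with the largest counts, c89980_g1_i1, had 2120 counts in T9 and 85 in T25 (23.1-fold, 18.6 to 29.0). It matches the same S. invicta gene as c89980_g2_i1, and the 9 contigs share 6 nucleotide entries. Contig c89805_g2_i2 was 4.78-fold (4.16 to 5.52) and c90634_g2_i1 2.45-fold higher (2.08 to 2.90). The levels of the reductases were far below those of the abundant CYP4G15 pair, since the largest FPKM of a reductase contig was 41.0 in T9.

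**Figure D4:**
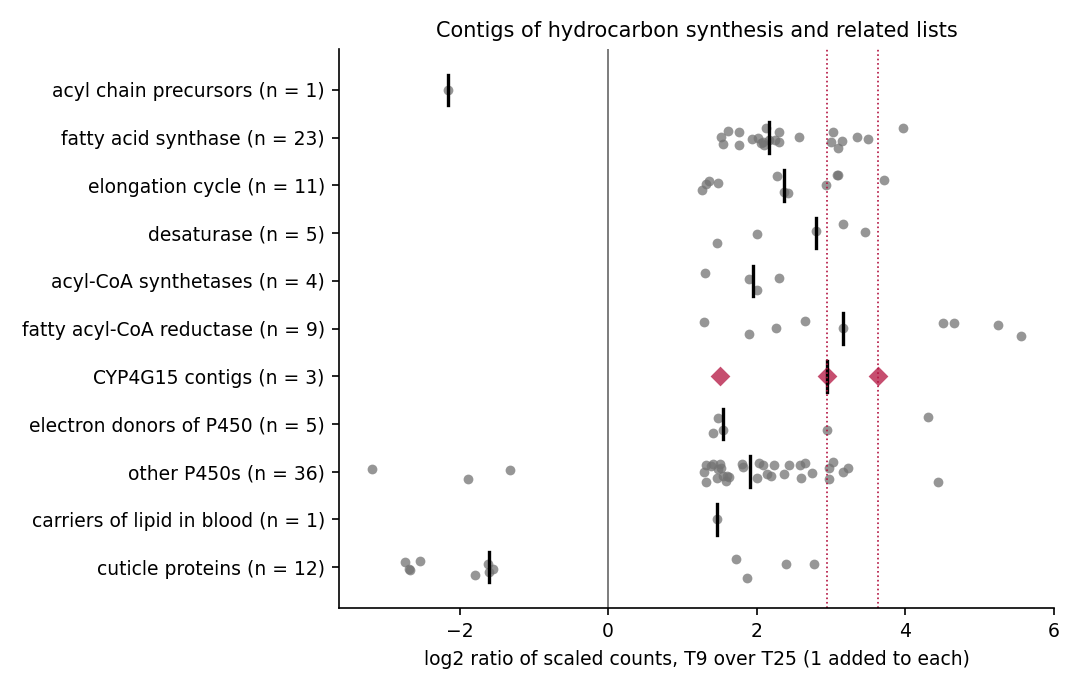
Log2 ratio of scaled counts, T9 over T25 with 1 added to each, for every contig of the hydrocarbon lists, the CYP4G15 contigs (red diamonds) and the other P450s, with black bars at the medians and dotted lines at the abundant CYP4G15 contigs (3.63 and 2.94). The synthase, elongation, desaturase and reductase contigs all lie right of 0, and the cuticle proteins lie on both sides.

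The partners that pass electrons to P450s were higher in T9 in 5 of 5 contigs, against 54.7% of the table. Of these 5, 2 were at least 4-fold higher, a share of 40.0% that is near the 36.9% of the table. A contig named for NADPH-cytochrome P450 reductase (c87162_g1_i4), the redox partner of CYP4G enzymes, had 432 counts in T9 and 51 in T25. It was 7.84-fold higher (5.85 to 10.7), an interval that holds the ratio of c89628_g4_i1. Its name rests on a nucleotide match to the ant Wasmannia auropunctata, without a match in the NR database. Cytochrome b5-like contig c107020_g1_i1 was 19.9-fold higher (16.2 to 24.8), and the more abundant c101923_g1_i1 was 2.66-fold higher (2.60 to 2.73).

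Outside the chain of enzymes the ratios were smaller or mixed. Acyl-CoA synthetases, which activate fatty acids, were higher in T9 in 4 of 4 contigs, against 54.7% of the table. Only 1 was at least 4-fold higher (25.0%, below the 36.9% of the table). The very long-chain ligase bubblegum (c89525_g1_i1) was 3.74-fold higher (3.60 to 3.88), beside the short-chain synthetase c85548_g1_i3 (2.47-fold, 2.43 to 2.52) and the synthetase family member 2 (c66944_g1_i1, 3.99-fold, 3.84 to 4.16). Apolipophorins (c84287_g2_i1), the protein of the lipid carrier, had 150479 counts in T9 and 50431 in T25, 2.76-fold higher (2.73 to 2.79). The only contig of the precursor list, malic enzyme (c79199_g1_i1), had 5 counts in T9 and 24 in T25, 5.19-fold lower (1.94 to 17.4). Of 12 cuticle protein contigs 4 were higher and 8 lower in T9, against 54.7% higher and 45.3% lower over the table. Only 2 were at least 4-fold higher (16.7%, against 36.9% of the table). At least 4-fold lower were 4 (33.3%), a share near the 30.8% of the table. The endocuticle glycoproteins c13448_g1_i1 and c86007_g1_i1 were 3.65-fold (3.61 to 3.69) and 3.31-fold higher (3.22 to 3.40), while c84896_g2_i1 was 2.94-fold lower (2.80 to 3.09).

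In RNA of whole bodies, a larger number of cells that express a gene and more RNA per cell cannot be told apart. Among oenocyte markers other than CYP4G15, 11 of 11 contigs were higher in T9, against 54.7% of the table. At least 4-fold higher were 9 (81.8%, against 36.9% of the table). The 11 contigs share 8 numbered nucleotide entries, and 9 of the 11 are the reductases above. The nuclear receptor seven-up, known from oenocytes of Drosophila, gave the other 2, of which c77518_g2_i1 had 439 counts in T9 and 161 in T25 (2.52-fold, 2.10 to 3.04), below the ratios of the abundant CYP4G15 contigs, and c48518_g1_i1 had 24 counts in T9 and 3 in T25 (7.40-fold, 2.25 to 38.4), an interval that holds both of those ratios. The nucleotide match of c48518_g1_i1 is an uncharacterized noncoding RNA of Apis mellifera, so its name is the less certain. No contig analysed here was named for spalt or hepatocyte nuclear factor 4.

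Markers of other tissues also differed between the libraries. For comparison, 54.7% of all contigs of the table were higher in T9 and 45.3% lower. Midgut markers were higher in T9 in 25 of 32 contigs (6442 CPM in T9 and 276.7 in T25) and fat body markers in 3 of 5 (1287 CPM in T9 and 462.4 in T25), nearly all of it in vitellogenin. Muscle markers were lower in T9 in 10 of 13 contigs (915.4 CPM in T9 and 1933 in T25). Neuronal and sensory markers were lower in 59 of 65, although their sum was 668.9 CPM in T9 and 306.2 in T25. Contigs matched by the word synapt held 621.9 CPM of that sum in T9 and 127.2 in T25, although 11 of these 14 were lower in T9. The 14 together had 33106 counts in T9 and 6268 in T25, and a single contig among them had 35102 over both libraries. The sums were lower in T9 for odorant receptors (19.5 CPM against 111.1 in T25), glutamate receptors (27.3 against 66.3) and rhodopsins (0.225 against 1.54). The part of these tissue differences in the ratio of CYP4G15 was not tested.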

How the data were processed

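Whole-body RNA of S. japonica workers was sequenced in 1 library per temperature. Following the methods and the submitters' processing notes, quality control used FastQC 0.11.7 and trimming used Trimmomatic 0.38. The authors then built 1 joint Trinity assembly, reduced it with CD-HIT, and mapped each library back with Bowtie 1.1.2. RSEM gave the read count per contig that was deposited, as whole numbers. The deposited FPKM values are per kilobase and depth. The deposited log2 values are log2(CPM + 1) with normalised library sizes, which were recovered from them. Columns of the authors' fold changes, mean abundance and p-values were not used, nor were 2 columns repeating the log2 values.

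Tabulated counts were 7176142 in T9 and 11259918 in T25. Ratios and intervals were tested on simulated data and computed with scipy 1.17.1 (pandas 2.3.3, numpy 2.4.6) under Python 3.11.15, and matplotlib 3.10.9 drew the plots. Lists were formed by words in the NR or NT description. The text names the members, the 3 contigs of largest total in each list, up to 10 CYP4 contigs and the 5 nearest contigs. The 4aa1, 6k1-like, P450-domain, c89980_g2_i1 and seven-up contigs were singled out after their values were seen. The members and lists were chosen with earlier results of these data known. Alternatives changed the scaling, pseudocount, fold threshold, low-count limit, counting unit and matched description.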

Additional observations from a re-analysis of the deposited data

How the results depend on the processing

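No CYP4G15 ratio changed direction under an alternative. The scalings could not have changed a direction, since they moved log2 ratios by at most 0.13 and the smallest CYP4G15 ratio was 2.93. The order of CYP4G15 and the other P450s in T25 did reverse when the P450-domain contigs were added. The summed CYP4G15 ratio of 9.83 was 10.8 with the depth implied by FPKM, 10.8 with the clean read totals of the study and 10.6 with raw counts. Under the same 3 settings the ratio of c39730_g1_i1 was 13.5, 13.5 and 13.4, and that of c89628_g4_i1 was 8.43, 8.43 and 8.32. These scalings raise the log2 ratio of every contig by 0.13, 0.13 and 0.11. With clean reads less the counts of the largest contig, chosen after seeing the data, the 3 ratios were 9.55, 12.0 and 7.48, a shift of -0.04. A threshold of 8-fold left 19 of 42 contigs of the pathway lists and 5 of 18 other P450s, and a total of at least 100 counts left 10 of 18 other P450s, as the construction of these settings implies. With the P450-domain contigs added, also chosen after seeing the data, CYP4G15 held 60.9% of P450 counts in T9 in place of 69.2%, and 40.0% in T25 in place of 51.3%. The acyl-CoA synthetases reached at least 4-fold in 3 of 4 contigs in place of 1 under each of the first 3 scalings, since 2 lie just under 4-fold. With the NT description only, 2 contigs were found in place of 3. Levels as counts per kilobase were not run, because no contig length was used here. No paired analysis was possible because each temperature has 1 library. Depth limits c90445_g3_i1, with 75 counts in all, far more than the abundant pair.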
